A study of Mus musculus with 3 samples.

Results

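Cells that resembled the Prg4-rich fibroblasts of the synovial lining were examined in bone marrow niche preparations of mice, sorted and sequenced as 3 droplet single-cell libraries. A member cell had to carry at least 5 Prg4 unique molecular identifiers (UMIs, the counted RNA molecules) and at least 2 UMIs in all of Clic5, Fgl2, Pla1a and Hbegf together. It also had to hold under 5 Cytl1 UMIs, under 5 UMIs of Tnmd, Thbs4, Kera and Angptl7 together, under 3 Pi16 UMIs, and none of Cdh5 or Ptprc. These limits set aside cartilage cells, tendon-like cells, Pi16 fibroblasts, endothelial cells and blood cells. The rule found 344 members among 16318 called cells, namely 68 in the aGVHD library, 57 in the BMT library and 219 in the WT library. Members were chosen by the measured UMIs of these genes, so the levels of the rule genes are given below as a description only.

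All recipients and controls were females of the CB6F1 cross between BALB/c and C57BL/6, which carries CD45.2. In the aGVHD group (acute graft-versus-host disease), mice were irradiated in 2 doses of 4.0 Gy, and 4 hours later received nucleated bone marrow cells of B6.SJL (CD45.1) mice together with spleen cells of female C57BL/6 mice. The BMT group (bone marrow transplantation) had the same irradiation and the same marrow, without spleen cells, and the WT group was untreated. Before sequencing, the preparation was depleted of blood cells by CD45, CD71 and a mix of lineage antibodies, and live cells were kept, so the members are cells of the niche that passed this sort and their share of the library is a share of sorted cells. Each group had 1 library; how many mice it pooled and how long after transfer they were sampled was not given in the sources used here. For the questions asked, the comparison of aGVHD with BMT addresses the added spleen cells, and the comparison of BMT with WT addresses irradiation and marrow transfer together.

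The synovial lining is the thin cell layer that faces the joint cavity. Its fibroblasts secrete lubricin, the glycoprotein encoded by Prg4, which coats cartilage and lowers friction, and they make the hyaluronan of joint fluid with the synthase Has1 and the enzymes Ugdh and Gfpt2 that supply sugar precursors. They carry CD55 on their surface and lack THY1, the surface protein of the deeper, sublining fibroblasts. In mice the transcription factor CREB5 is known to be needed for Prg4 expression in superficial joint cells. Type I and type II interferon act on such stromal cells through their receptors and raise MHC class I genes and the immunoproteasome that makes their peptides.

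The 3 libraries held 67439098 (aGVHD), 44219063 (BMT) and 86575425 (WT) UMIs in all barcodes, and 5568, 3621 and 7129 called cells in the same order. The members had a median of 9417 UMIs per cell in aGVHD, 19191 in BMT and 10965 in WT, and their UMIs summed to 855346, 1151779 and 2696207. Since each group is a single library, the spread between mice is unknown and nothing was tested, and every difference below describes these 3 libraries. Levels are UMIs of a gene summed over the members of a library, scaled to counts per 1000000 of their UMIs (CPM), and a fold is a ratio of 2 such levels. Their exact 95% intervals cover counting error only and are given per gene, without adjustment for the number of genes compared. Between the aGVHD and BMT libraries 11 called cells shared a barcode, between aGVHD and WT 8, and between BMT and WT 10, and no shared barcode was a member's in both libraries of a pair. Scrublet scores marked 6 members of aGVHD, 2 of BMT and 14 of WT as likely doublets.

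Prg4 was present in every member by the rule, and its amount ranged widely. A member of the aGVHD library held between 5 and 4686 Prg4 UMIs with a median of 16.5. In BMT the range was 5 to 9630 with a median of 346, and in WT it was 5 to 5719 with a median of 160. Summed over members, Prg4 (chromosome 1, 150449412 to 150466165 on the minus strand, GRCm38) stood at 28874 CPM in aGVHD, 66425 in BMT and 55559 in WT. Barcodes with at most 100 UMIs, which hold free RNA, had 375 CPM of Prg4 in aGVHD, 1114 in BMT and 2451 in WT. The aGVHD members therefore had the lowest Prg4 level, and the WT library had the most free Prg4.

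Prg4 UMIs were also read in a cell type that should lack the gene. Among endothelial cells, 0.628% of 956 in aGVHD, 2.07% of 774 in BMT and 5.11% of 450 in WT reached 5 Prg4 UMIs, at median depths of 3272.5, 5047.5 and 4725 UMIs. These shares are not a rate of free RNA alone, since the endothelial cell with most Prg4 held 3231 Prg4 UMIs in aGVHD, 8121 in BMT and 831 in WT, and 2, 10 and 7 called cells with Cdh5 had at least 0.5% of their UMIs in Prg4. Just under the threshold, 25 cells of aGVHD, 3 of BMT and 41 of WT had 3 or 4 Prg4 UMIs and met the other limits. Just inside it, 6, 3 and 13 members had 5 or 6. The share of free RNA in the summed members, estimated from neutrophil granule and haemoglobin genes together, was 0.627% in aGVHD, 0.730% in BMT and 14.2% in WT. Hbb-bs, a haemoglobin gene among them, stood at 409 CPM in aGVHD members, 86.0 in BMT and 11880 in WT, with 20.8% of its WT UMIs in 1 cell, against 72067, 12467 and 88774 CPM in free RNA. Estimated from 9 neutrophil markers alone, which was tried after the data were seen, the share was 0.670% in aGVHD, 0.288% in BMT and 0.460% in WT. The order of the 3 libraries thus depends on the genes used, and the high WT value appeared only with haemoglobin genes. Erythroid genes made up a median of 0.0283% of the UMIs of a WT member, but 75.3% in the highest member. Haemoglobin UMIs of WT thus lay very unevenly over members, and how much of them was free RNA was not tested.

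The name was checked against lining genes that the rule does not use. Col22a1, a collagen of tissue junctions, Tspan15, a tetraspanin, and Htra4, a secreted protease, were almost absent from members whose Prg4 made up little of their RNA. They were present where it made up more, with gaps for Htra4 in aGVHD. In aGVHD, Col22a1 stood at 0 CPM in members with under 0.1% of their UMIs in Prg4 and at 391 CPM in those with at least 5%. In BMT the same 2 bins had 0 and 662 CPM, and in WT 8.50 and 753 CPM. Htra4 stood at 0 and 148 CPM in aGVHD, at 0 and 168 in BMT, and at 2.83 and 225 in WT. Both genes were thus higher in the bin of most Prg4 than in the bin of least in all 3 libraries. The bins between did not all follow. In aGVHD, Htra4 stood at 4.63 CPM in members with 0.1 to 0.5% Prg4. It stood at 0 CPM in the 9 cells with 0.5 to 2% and in the 6 cells with 2 to 5%. Below 0.5% Prg4, 1 of 44 members in aGVHD, 3 of 19 in BMT and 12 of 85 in WT held a UMI of Col22a1, Tspan15 or Htra4, and at or above it 16 of 24, 32 of 38 and 117 of 134 did. The members' UMIs, library and depth are shared between these values, so this is a description.

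**Figure D1:**
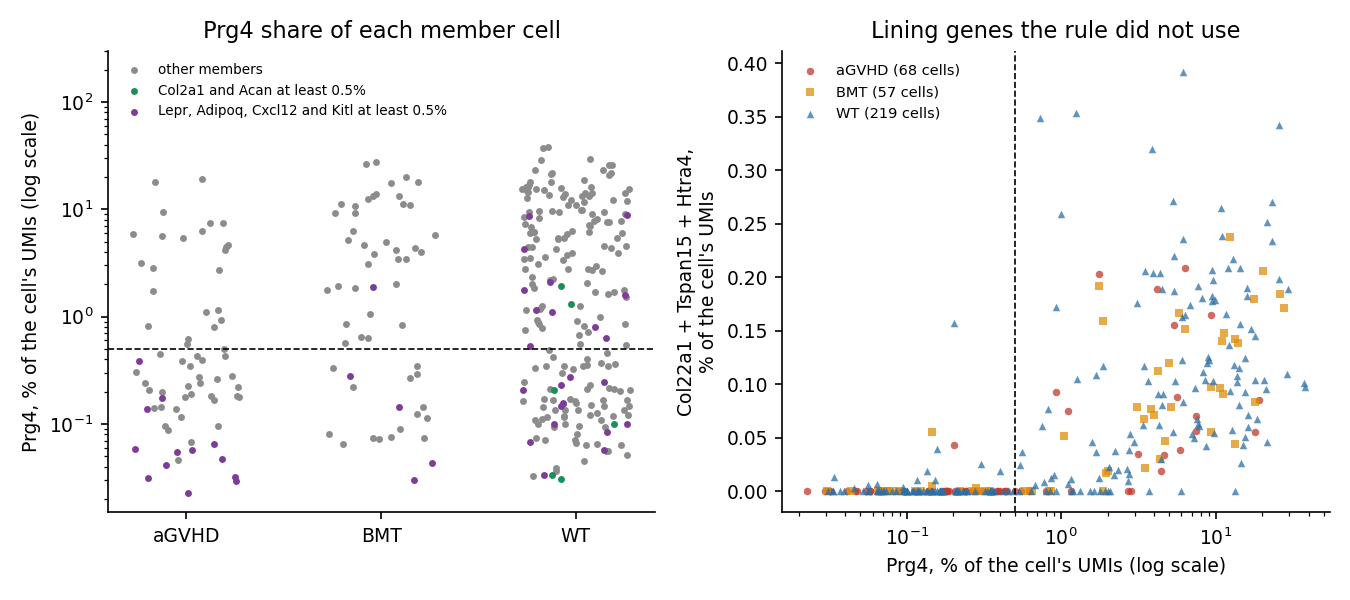
Left, the share of each member's UMIs that were Prg4 (log scale) in the aGVHD, BMT and WT libraries, 1 point per cell, with the dashed line at 0.5%; purple cells had at least 0.5% of UMIs in Lepr, Adipoq, Cxcl12 and Kitl together, green cells at least 0.5% in Col2a1 and Acan. Right, the summed share of Col22a1, Tspan15 and Htra4 in the same cells against their Prg4 share. The 13 purple cells of aGVHD all lie under the line, and left of the line on the right 1 of 44 aGVHD, 3 of 19 BMT and 12 of 85 WT cells carry any of the 3 genes.

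The other end of the Prg4 range looked different. Lepr, the leptin receptor that marks marrow stromal cells, and Cxcl12, the chemokine they make to hold blood stem cells, were higher in the summed RNA of members with little Prg4. In aGVHD, Cxcl12 stood at 11064 CPM in members with under 0.1% Prg4 and at 38.2 CPM in those with at least 5%. In BMT the 2 values were 2127 and 507 CPM, and in WT 3175 and 501. Members with at least 0.5% of their UMIs in Lepr, Adipoq, Cxcl12 and Kitl together, called LepR-rich here, numbered 13 of 68 in aGVHD, 5 of 57 in BMT and 23 of 219 in WT. In WT 7 members, a LepR-rich cell among them, and none in aGVHD or BMT, had as large a share in the cartilage genes Col2a1 and Acan. Under 0.5% Prg4, 13 of 44 members in aGVHD, 4 of 19 in BMT and 12 of 85 in WT were LepR-rich, so most were not. The 14 sublining genes summed to 5142, 6099 and 5311 CPM in these members with little Prg4. Their 11 lining genes outside the rule summed to 509, 1217 and 940 CPM. The data therefore go against the name lining-like for members with little Prg4.

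**Figure D2:**
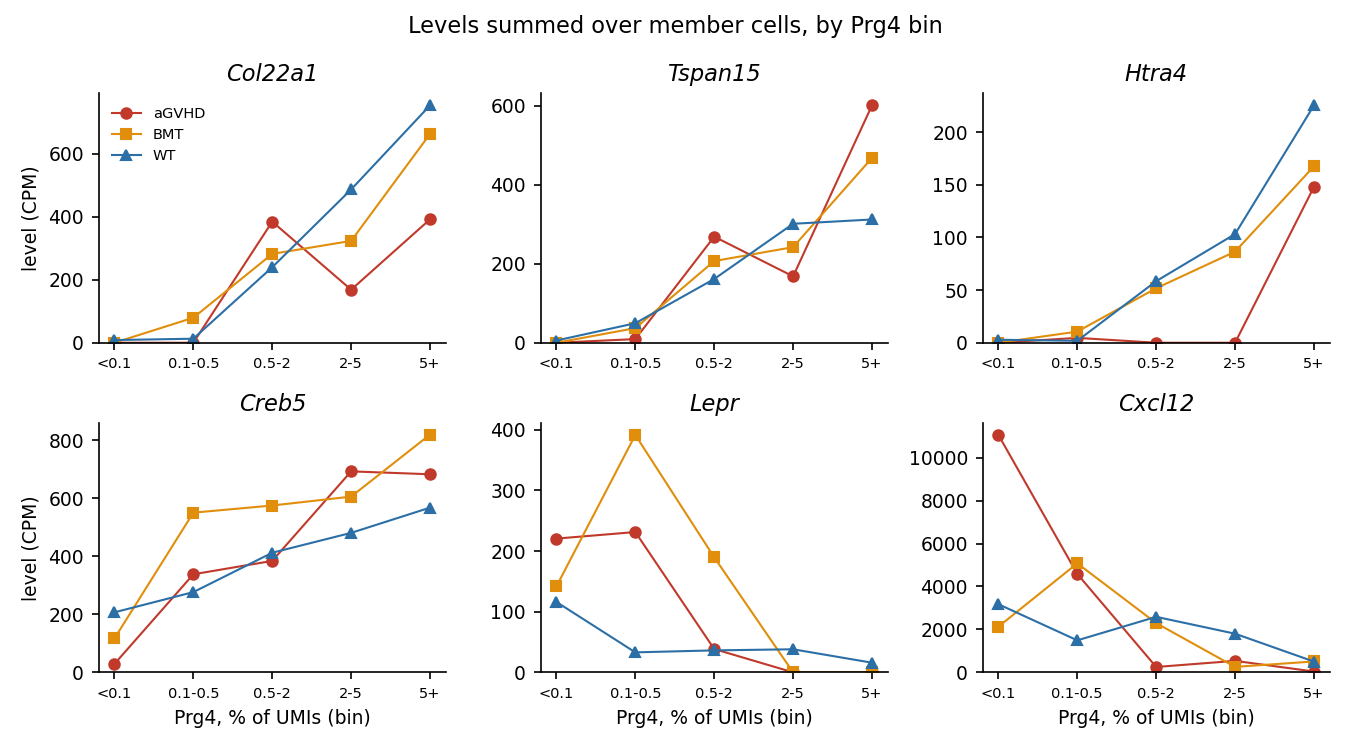
Levels (CPM, linear axes) of 4 genes of the lining programme and 2 marrow stroma genes, summed over the members of 5 bins of Prg4 share, in aGVHD (red circles), BMT (orange squares) and WT (blue triangles). Col22a1, Tspan15, Htra4 and Creb5 were highest or near their highest in members with at least 5% Prg4, while Lepr and Cxcl12 were low there; aGVHD bins hold 15, 29, 9, 6 and 9 cells from left to right.

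Members with at least 0.5% of their UMIs in Prg4 are called Prg4-high below, and most of them held Col22a1, Tspan15 or Htra4. Their 11 lining genes outside the rule summed to 3560 CPM in aGVHD, 3520 in BMT and 3193 in WT, and 14 genes of sublining fibroblasts to 3769, 2815 and 2422 CPM. Sublining genes thus summed to more than lining genes in aGVHD and to less in BMT and WT. A large part of the sublining sum was 1 gene, Ly6c1, at 2131 CPM in aGVHD and 1004 in WT. The name of Prg4-high members thus rests on some lining genes and not on an absence of sublining RNA. It has less support in aGVHD, where the sublining sum was the larger. Htra4 was found in 6 of 24 Prg4-high members there, in 22 of 38 in BMT and in 90 of 134 in WT. Rspo2 was found in 5, 18 and 65 of them, while Tspan15 was found in 16, 30 and 89. The 0.5% limit was chosen after the data were seen. It keeps 24 of 68 members in aGVHD (35.3%), 38 of 57 in BMT (66.7%) and 134 of 219 in WT (61.2%). The limit cuts a range and does not mark off a cell type: 6 members of aGVHD, 5 of BMT and 16 of WT lay between 0.5% and 1%, and 11, 5 and 15 lay between 0.25% and 0.5%. Prg4-high members had no LepR-rich cell in aGVHD, 1 in BMT and 11 in WT. Scrublet scores marked 4 of the 24 in aGVHD, 1 of the 38 in BMT and 7 of the 134 in WT as likely doublets. Main differences are given for all members and for Prg4-high members.

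Within Prg4-high members, the rule genes were all present. Prg4 stood at 66217 CPM in aGVHD, 90192 in BMT and 82585 in WT. Clic5, an intracellular chloride channel family protein, stood at 2060, 2226 and 892 CPM in the same libraries. Hbegf, a growth factor that binds the EGF receptor and is made by lining fibroblasts, stood at 4577, 2798 and 2363 CPM. Fgl2, a fibrinogen-like protein, stood at 1199, 2156 and 1769 CPM, and Pla1a, a phospholipase, at 174, 399 and 607. Clic5 was thus lowest in WT and Hbegf highest in aGVHD, while Fgl2 and Pla1a were lowest in aGVHD. Many further cells passed the 0.5% limit without being members: of 115, 97 and 606 called cells in aGVHD, BMT and WT that passed it, 24, 38 and 134 were members. Of the others, 49, 42 and 252 exceeded the tendon gene limit and 22, 7 and 261 the Cytl1 limit.

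Member cells made up 1.22% of called cells in aGVHD (95% interval 0.950 to 1.55), 1.57% in BMT (1.19 to 2.03) and 3.07% in WT (2.68 to 3.50). The ratio of shares was 0.776 for aGVHD over BMT (0.547 to 1.10) and 0.512 for BMT over WT (0.384 to 0.684). Among matrix cells, meaning cells without Ptprc or Cdh5 with at least 1% of UMIs in 6 collagen and proteoglycan genes, members were 40 of 581 in aGVHD, 25 of 564 in BMT and 138 of 3380 in WT. On that base the ratios were 1.55 (0.955 to 2.53) and 1.09 (0.716 to 1.65). Only these members passed, out of 68, 57 and 219, and Col1a1, Col3a1 and Lum, which help to set that base, themselves differed between the libraries, so these ratios describe another subset of members. Prg4-high members were 0.411 times as frequent among called cells in aGVHD as in BMT (0.247 to 0.684), and 0.558 times as frequent in BMT as in WT (0.390 to 0.799). Among matrix cells these 2 ratios were 0.755 (0.283 to 2.01) and 0.805 (0.404 to 1.61), both with intervals that hold 1. The sort, the number of other cells that passed it and the dissociation of each library set these shares too, and their part was not tested.

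Markers of blood and endothelial cells were low in the members, apart from erythroid genes, while those of other stromal cells were not. The 14 macrophage markers summed to 74.8 CPM in aGVHD, 41.7 in BMT and 29.3 in WT members, against 1299, 1740 and 450 CPM in the barcodes of free RNA, and Adgre1, Trem2 and Vsig4 were at 0 in all 3. The 8 lymphoid markers summed to 5.85, 2.60 and 23 CPM, with Cd3d, Cd3g and Ms4a1 at 0 in all 3. The 10 endothelial markers summed to 57.3, 64.2 and 50.1 CPM, against 719, 1088 and 352 CPM of free RNA, with Emcn at 0 in all 3. The neutrophil markers summed to 181, 79.0 and 48.6 CPM. White blood cell and vessel markers were thus low in the members, while erythroid genes were not low in WT. The rule left out every cell with Ptprc or Cdh5, so low white blood cell and vessel markers partly follow from the selection. The 7 marrow stroma markers summed to 13246 CPM in aGVHD, 2497 in BMT and 1857 in WT. The 7 erythroid genes summed to 804, 276 and 20643 CPM, and the 15 cartilage genes to 167, 511 and 3973. The 7 adventitial markers, of fibroblasts around vessels, summed to 2591, 2583 and 1961 CPM, above their 688, 765 and 624 CPM in free RNA, and to 3788, 2885 and 2073 CPM in Prg4-high members. The 9 osteoblast markers summed to 1214, 809 and 3005 CPM, the 6 tendon markers to 63.1, 219 and 842, and the 10 mural cell markers to 585, 728 and 707. Adventitial genes were thus found in all 3 libraries. Ly6c1, which the sublining list also holds, made up a large part of these sums. It stood at 1511 CPM in aGVHD and 967 in WT members, and at 2131 and 1004 CPM in Prg4-high members. Over all members, marrow stroma genes were thus highest in aGVHD, and red cell, cartilage, osteoblast and tendon genes in WT. The osteoblast marker Spp1 alone stood at 1886 CPM in WT members, with 58.6% of its UMIs in 1 cell. Prg4-high members had another order, with marrow stroma markers at 367 CPM in aGVHD, 1042 in BMT and 1484 in WT, and osteoblast markers at 317, 953 and 878. The part of these markers in the gene differences was not tested beyond the values given for Prg4-high members.

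Antigen presentation genes differed together. B2m, the light chain of every MHC class I molecule, stood in Prg4-high members at 6135 CPM in aGVHD (5882 to 6395), 3560 in BMT (3434 to 3690) and 867 in WT (824 to 911). H2-D1, a classical heavy chain, stood at 9397, 6216 and 1048 CPM, and H2-K1, the other, at 3110, 1764 and 287. All 3 genes were thus highest in aGVHD, intermediate in BMT and lowest in WT. For B2m the fold was 1.72 for aGVHD over BMT (1.63 to 1.82) and 4.11 for BMT over WT (3.86 to 4.37). For H2-K1 it was 1.76 (1.63 to 1.91) and 6.16 (5.57 to 6.82), and for H2-D1 1.51 (1.45 to 1.58) and 5.93 (5.62 to 6.25). The heavy chain genes are near-identical copies of each other, and CB6F1 mice carry 2 forms of each, so how reads were split among them is uncertain.

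The MHC class I list as a whole moved the same way. In all members, 10 of 10 measured genes were at least 1.5-fold higher in aGVHD than in BMT, with a median log2 ratio of 1.36. Over all 6747 genes measured in that comparison, 14.6% were at least 1.5-fold higher and 13.4% lower. In BMT over WT, 9 of 9 were higher with a median of 2.66, where 10.3% of 8618 measured genes were higher and 12.3% lower. Prg4-high members gave 9 of 9 with a median of 1.22 and 8 of 8 with a median of 2.54. Median log2 ratios over all genes were 0.01 for aGVHD over BMT and −0.01 for BMT over WT. Per cell, MHC class I genes made up a median of 2.16% of the UMIs of Prg4-high members in aGVHD, 1.17% in BMT and 0.188% in WT.

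Genes induced by interferon gamma, the main product of activated T cells and natural killer cells, followed the same order. In all members, 24 of 27 measured genes of the list were at least 1.5-fold higher in aGVHD than in BMT and 1 was lower (median log2 ratio 2.13), and 21 of 22 were higher in BMT than in WT with none lower (median 2.50). In Prg4-high members the counts were 18 of 22 with 1 lower (median 1.99) and 16 of 18 with none lower (median 2.36). The type I interferon list had 14 of 20 higher and 1 lower in aGVHD over BMT (median 1.04), and 16 of 19 higher and none lower in BMT over WT (median 1.98). These lists share many targets, so they cannot tell which interferon, if any, acted on these cells, and this was not tested.

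Among the members of these lists, Gbp2, a GTPase that attacks the vacuoles of intracellular pathogens, stood at 474 CPM in aGVHD Prg4-high members (406 to 551), 77.1 in BMT (59.5 to 98.3) and 11.7 in WT (7.23 to 17.9). Iigp1, another such GTPase, stood at 866 and 59.3 CPM in aGVHD and BMT, with UMIs in 21 of 24 and 14 of 38 cells, and at 0 UMIs in WT. Its fold was 14.6 for aGVHD over BMT (10.8 to 20.1), and in BMT it was at least 35.5-fold higher than a floor of 3 UMIs in WT. Psmb8, a catalytic subunit of the immunoproteasome, stood at 568, 140 and 22.8 CPM. Like the class I genes, all 3 were highest in aGVHD and lowest in WT.

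Not every interferon target followed that order. Irf1, a transcription factor induced by interferon gamma, stood at 295 CPM in aGVHD and 294 in BMT Prg4-high members, against 66.2 in WT. Socs1, the inhibitor of JAK kinases that limits interferon signalling, stood at 135 CPM in aGVHD, 242 in BMT and 41.2 in WT, a fold of 0.558 for aGVHD over BMT (0.400 to 0.766) and 5.88 for BMT over WT (4.48 to 7.78). Socs1 was thus highest in BMT. Ifit1, which binds viral RNA and is a type I interferon target, stood at 361, 304 and 8.90 CPM, with 60.5% of the BMT UMIs in 1 cell. The aGVHD and BMT levels of Irf1 and Ifit1 lay within their counting error of each other.

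Cxcl9 and Cxcl10 are chemokines that attract T cells through CXCR3, and most Cxcl9 UMIs lay in members with marrow stroma genes. Cxcl9 stood at 5088 CPM in aGVHD members, 687 in BMT and 0 in WT, with UMIs in 31 of 68, 12 of 57 and 0 of 219 cells. Of these UMIs, 3659 of 4352 in aGVHD and 742 of 791 in BMT lay in LepR-rich members. In Prg4-high members Cxcl9 stood at 400 CPM in aGVHD, in 4 of 24 cells, and at 71.2 CPM in BMT, in 7 of 38 cells. The level of Cxcl9 over all members thus came mainly from LepR-rich members. Cxcl10 stood at 1729 CPM in aGVHD members, 145 in BMT and 29.7 in WT. Its fold for aGVHD over BMT was 11.9, and 12.7 without LepR-rich and cartilage-rich members. In Prg4-high members Cxcl10 stood at 287, 64.1 and 14.5 CPM, in 9, 8 and 5 cells.

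Promoter sequence is shown for 3 of these genes, since genes that differed together in both comparisons can be set against their upstream motifs. Of 76 interferon and MHC class I candidates, 27 were at least 1.5-fold higher in both comparisons, in all members and in Prg4-high members, and 23 of them matched RefSeq promoters of build GRCm38.p6. The interferon-stimulated response element was searched as GAAANNGAAA or its reverse complement TTTCNNTTTC in the 250 bases upstream of the RefSeq start, and was found in 9 of the 23 genes (39.1%), against 3.46% of 27025 genes in the table. The gamma-activated site TTCNNNGAA, which reads the same on both strands, was found in 5 (21.7%), against 8.13%. All candidates came from interferon and class I lists, so the 23 genes and all genes of the table are unlike sets. The shares of the 76 candidates were not computed, so these values say nothing about the differences between libraries. B2m lay at chr2:122147437-122147686 on the plus strand, Gbp7, a further guanylate-binding GTPase, at chr3:142530086-142530335 on the plus strand, and H2-T22, a non-classical class I gene, at chr17:36042743-36042992 on the minus strand. Each window is written 5′ to 3′ on the gene's strand with the matches in capitals. B2m and H2-T22 hold 1 response element each, and Gbp7 holds 1 response element and 2 gamma-activated sites. All 3 windows shown hold a match, while those of H2-D1, H2-K1 and Cxcl9 hold none of either kind. A match is a description of these letters and not a binding site shown here.
B2m: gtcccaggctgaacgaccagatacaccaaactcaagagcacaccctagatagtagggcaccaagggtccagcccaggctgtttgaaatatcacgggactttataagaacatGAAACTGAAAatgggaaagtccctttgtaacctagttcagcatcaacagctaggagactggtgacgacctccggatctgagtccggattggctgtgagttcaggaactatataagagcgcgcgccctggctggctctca
Gbp7: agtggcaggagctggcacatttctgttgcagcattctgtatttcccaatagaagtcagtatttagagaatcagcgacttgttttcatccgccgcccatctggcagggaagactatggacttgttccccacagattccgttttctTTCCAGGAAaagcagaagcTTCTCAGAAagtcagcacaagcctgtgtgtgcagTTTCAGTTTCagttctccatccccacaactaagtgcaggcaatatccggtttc
H2-T22: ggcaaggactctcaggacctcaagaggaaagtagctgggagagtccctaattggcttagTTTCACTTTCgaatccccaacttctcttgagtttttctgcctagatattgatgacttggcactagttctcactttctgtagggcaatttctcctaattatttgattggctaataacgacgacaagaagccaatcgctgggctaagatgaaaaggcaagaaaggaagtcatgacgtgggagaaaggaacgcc

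The 3 genes differed in level. Beside the B2m values above, Gbp7 stood in Prg4-high members at 193 CPM in aGVHD, 79.5 in BMT and 11.1 in WT, a fold of 2.43 for aGVHD over BMT (1.71 to 3.45) and 7.14 for BMT over WT (4.28 to 12.4). H2-T22 stood at 221, 83.1 and 35.1 CPM, a fold of 2.66 (1.90 to 3.71) and 2.37 (1.66 to 3.38). H2-T23, which encodes the ligand of the inhibitory NKG2A receptor, stood at 838, 240 and 41.7 CPM and was among the 10 leading genes of aGVHD over BMT in Prg4-high members, at 3.50-fold (2.92 to 4.20).

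**Figure D3:**
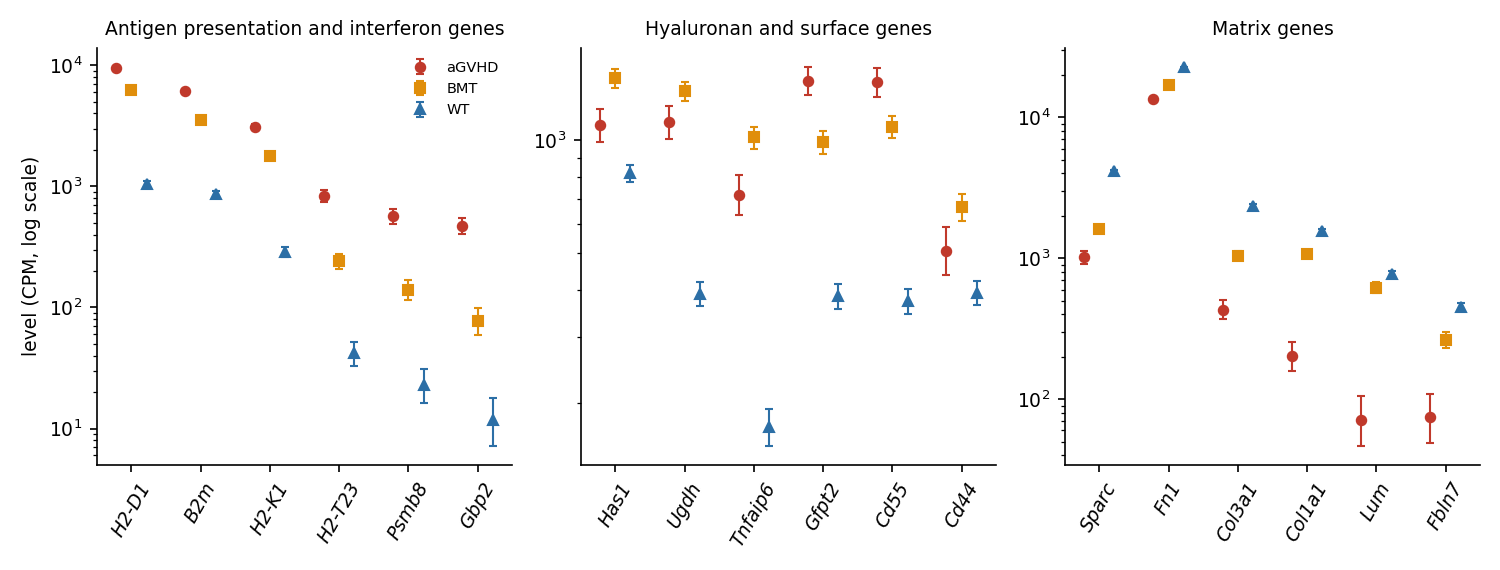
Levels (CPM, log scale) summed over Prg4-high members in aGVHD (red circles, 24 cells), BMT (orange squares, 38 cells) and WT (blue triangles, 134 cells), 1 library each; bars are exact 95% Poisson intervals and cover counting error only. The 6 genes on the left descend from aGVHD to WT, the hyaluronan and surface genes are lowest in WT, and the matrix genes are lowest in aGVHD.

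The genes that differed most between BMT and WT were named by a size rule: at least 30 UMIs over both libraries, at least 2-fold, an interval excluding 1, UMIs in at least 5 members of the higher library and at least 2 times that library's free RNA level. Of 8618 measured genes, 94 were higher in BMT (1.09%) and 69 lower (0.801%). In Prg4-high members 92 of 7296 were higher (1.26%) and 84 lower (1.15%). With each gene's highest cell left out, the counts over all members were 45 and 42. Without LepR-rich and cartilage-rich members, which was tried after the data were seen, 90 of 8060 genes were higher (1.12%) and 86 lower (1.07%). Of the genes called in all members, 57 of the 94 and 38 of the 69 were called in Prg4-high members too. Of the 22 measured interferon gamma genes 1 passed this rule in BMT over WT, and none of the 9 class I genes did, since free RNA also held them: B2m stood at 2568 CPM in the free RNA of aGVHD, 3140 in that of BMT and 632 in that of WT. Free RNA made up an estimated 0.730% of the BMT members' UMIs.

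Genes of hyaluronan synthesis stood above their WT level in BMT. Ugdh, which makes UDP-glucuronic acid, stood in Prg4-high members at 1117 CPM in aGVHD (1011 to 1231), 1350 in BMT (1273 to 1431) and 390 in WT (362 to 420), with UMIs in 24 of 24, 37 of 38 and 116 of 134 cells. Its fold for BMT over WT was 3.46 (3.15 to 3.81), and for aGVHD over BMT 0.827 (0.737 to 0.927). The BMT and WT levels thus differed by far more than counting error, and nearly every BMT cell carried the gene. Gfpt2, which starts the synthesis of amino sugars, stood at 1442, 987 and 384 CPM, 2.57-fold for BMT over WT (2.32 to 2.85). Has1 stood at 1097, 1462 and 816 CPM, 1.79-fold (1.66 to 1.93).

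Tnfaip6, which moves heavy chains of serum inhibitors onto hyaluronan and cross-links it, stood at 717 CPM in aGVHD, 1018 in BMT and 173 in WT Prg4-high members, 5.90-fold for BMT over WT (5.18 to 6.74), and was carried by 13 of 24, 24 of 38 and 42 of 134 cells. In all members the same fold was 2.59 (2.39 to 2.82). Itih5, one of those heavy chains, stood at 389, 815 and 492 CPM, and Cd44, the hyaluronan receptor, at 507, 664 and 392.3. Both were highest in BMT. Of 13 measured genes of the lubrication and hyaluronan list in all members, 6 were at least 1.5-fold higher in BMT over WT and 1 was lower, with a median log2 ratio of 0.48, where 10.3% of all measured genes were higher and 12.3% lower. In Prg4-high members 7 of 11 were higher and 2 lower, with a median of 0.76, where 12.3% of all genes were higher and 14.7% lower. Has2, the other synthase measured, stood in all members at 17.5, 15.6 and 18.5 CPM.

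Surface and signalling genes of the lining gave further differences. Cd55, which protects cells from complement, stood in Prg4-high members at 1428 CPM in aGVHD, 1087 in BMT and 372 in WT, 2.92-fold for BMT over WT (2.64 to 3.23). Sema3a, a secreted guidance protein, stood at 210, 225 and 127 CPM. Rspo2, which strengthens Wnt signalling, stood at 46.9, 112 and 171 CPM, and Itga6, a laminin receptor subunit, at 179, 281 and 347. Cd55 and Sema3a were thus lowest in WT, and Rspo2 and Itga6 lowest in aGVHD. Of 10 measured lining genes in all members, 3 were higher and none lower in BMT over WT (median −0.13), against 10.3% and 12.3% of all genes. In Prg4-high members 3 were higher and 2 lower (median −0.22), against 12.3% and 14.7%. In aGVHD over BMT 1 was higher and 6 lower (median −1.09), a value that includes the larger share of members with little Prg4, and in Prg4-high members 2 were higher and 4 lower (median −0.34), where 14.8% of all genes were higher and 13.7% lower. Creb5 stood at 642, 725 and 519 CPM in Prg4-high members.

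Immediate early genes were also higher in BMT than in WT. In Prg4-high members 12 of 23 immediate early genes were at least 1.5-fold higher in BMT over WT and 2 were lower (median 0.80); over all 7296 genes 12.3% were higher and 14.7% lower. In all members 9 of 23 were higher and 3 lower (median 0.46). Atf3, a stress-induced transcription factor, stood at 778 CPM in aGVHD, 1447 in BMT and 441 in WT Prg4-high members, 3.28-fold for BMT over WT (3.0 to 3.60). Egr1 stood at 1762, 2560 and 1008 CPM. Both genes are also induced in cells during tissue digestion, and how far each library's digestion set them was not tested.

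Growth factor genes did not differ one way. In Prg4-high members 5 of 11 measured growth factor and cytokine genes were at least 1.5-fold higher in BMT over WT and 2 lower (median 0.45), and in all members 7 of 17 were higher and 3 lower (median 0.17). Of 21 measured genes of the Wnt, BMP and TGF-beta list in Prg4-high members 2 were higher and 11 lower (median −0.62), and of 25 in all members 5 were higher and 8 lower (median −0.25). Ereg, which encodes the EGF family ligand epiregulin, stood at 35.8, 116 and 22.3 CPM in Prg4-high members, 5.22-fold for BMT over WT (3.58 to 7.75), in 6, 13 and 17 cells. Inhba, the subunit of activin A, stood at 210, 178 and 56.2 CPM, and Bmp2 at 212, 83.1 and 39.5. Inhba was thus higher in aGVHD and in BMT than in WT, and Bmp2 descended from aGVHD to WT. Adgrd1, an adhesion receptor coupled to G proteins, stood in all members at 59.6, 97.2 and 21.9 CPM, 4.44-fold for BMT over WT (3.21 to 6.20), but 0.761-fold after members were thinned to 2000 UMIs. Rcan1, an inhibitor of calcineurin, stood in all members at 144, 488 and 168 CPM, 2.90-fold (2.56 to 3.29). Prss23, a secreted protease, was 3.29-fold higher (2.73 to 3.96), with 39.9% of its BMT UMIs in 1 cell. Tbxas1, thromboxane synthase, was 11.7-fold higher (4.40 to 39.1) on 10 BMT cells with 48.0% of UMIs in 1 of them, and Rorb, a nuclear receptor, 5.85-fold higher (2.71 to 13.7) on 11 cells.

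Ppbp, a platelet chemokine, led the list at 85.1 CPM in BMT members against 0.371 CPM (1 UMI) in WT, 229-fold with an interval of 40.2 to 9152, but it lay in 5 BMT cells, and 57.1% of its UMIs in 1 of them.

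Genes lower in BMT than in WT included Timp1 and Gpx3, although their lists were not lower. Of 22 measured proteases and inhibitors in Prg4-high members 5 were at least 1.5-fold higher and 3 lower, and of 17 antioxidant genes 4 were higher and 2 lower. Timp1, an inhibitor of matrix metalloproteinases, stood in Prg4-high members at 196 CPM in aGVHD (153 to 247), 148 in BMT (123 to 177) and 496 in WT (464 to 529). Gpx3, the secreted glutathione peroxidase, stood at 689, 1316 and 3053 CPM. The WT level was the highest for both, and Gpx3 was 2.32-fold lower in BMT than in WT (2.18 to 2.48) and Timp1 3.34-fold lower (2.77 to 4.06). Lmo2, a transcription cofactor, was 6.73-fold lower (4.41 to 10.8), and Nt5dc2, a nucleotidase family protein, 7.66-fold lower (4.29 to 15.1). Fap, a surface protease of activated fibroblasts, stood at 19.3, 54.6 and 233 CPM, 4.27-fold lower in BMT than in WT (3.15 to 5.93). Further genes among the 10 lowest in all members were Krtdap, Cyp2f2, Fetub, Fgf10, Scn7a and Dkk2, each on under 100 CPM in WT, Fetub was 1.90-fold higher in BMT after thinning, and 36.5% of the WT UMIs of Krtdap lay in 1 cell.

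Collagens were lower in aGVHD than in BMT, and several matrix genes were also lower in BMT than in WT. Col1a1, the main chain of type I collagen, stood in Prg4-high members at 201 CPM in aGVHD (158 to 253), 1069 in BMT and 1554 in WT (1497 to 1613), a fold of 0.188 for aGVHD over BMT (0.146 to 0.239) and 0.688 for BMT over WT (0.637 to 0.742). Col3a1, of type III collagen, stood at 433, 1046 and 2350 CPM. Sparc, a collagen-binding protein, stood at 1015, 1627 and 4155 CPM. All 3 were lowest in aGVHD and highest in WT. Of 17 measured collagens in Prg4-high members, 11 were at least 1.5-fold lower in aGVHD over BMT and 1 was higher (median log2 ratio −0.76), where 14.8% of 4827 genes were higher and 13.7% lower. In BMT over WT 4 of 18 were lower and 2 higher (median −0.27), where 14.7% of all genes were lower and 12.3% higher. Over all members 12 of 19 were lower and none higher in aGVHD over BMT (median −1.03), and 7 of 19 lower and 3 higher in BMT over WT (median −0.39). Matrix glycoproteins differed less one way: in Prg4-high members 8 of 23 were lower and 5 higher in aGVHD over BMT (median −0.31), and 10 of 28 lower and 8 higher in BMT over WT (median −0.07). Free RNA also held collagen transcripts.

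Single proteoglycan and protease genes were lower in aGVHD over BMT, while their lists were mixed. Of 7 measured small leucine-rich proteoglycans in Prg4-high members 2 were lower and none higher (median −0.11), and of 21 proteases and inhibitors 8 were lower and 5 higher (median −0.32). In all members 3 of 8 proteoglycans were lower and 1 higher (median 0.07), and 9 of 25 proteases and inhibitors lower and 9 higher (median −0.31). Lum, the small proteoglycan lumican that spaces collagen fibrils, stood in Prg4-high members at 71.7 CPM in aGVHD (46.8 to 105), 619 in BMT (567 to 675) and 769 in WT (729 to 811), a fold of 0.116 for aGVHD over BMT, with UMIs in 6 of 24, 15 of 38 and 59 of 134 cells. Dpt, dermatopontin, stood at 108, 362 and 398 CPM. Mmp2, which cuts denatured collagen, stood at 116, 450 and 271 CPM, and Ctsk, the collagen-cutting cathepsin, at 438, 880 and 887. The aGVHD level was the lowest for all 4 genes. Fn1, fibronectin, stood at 13599, 16875 and 22701 CPM in the same order.

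**Figure D4:**
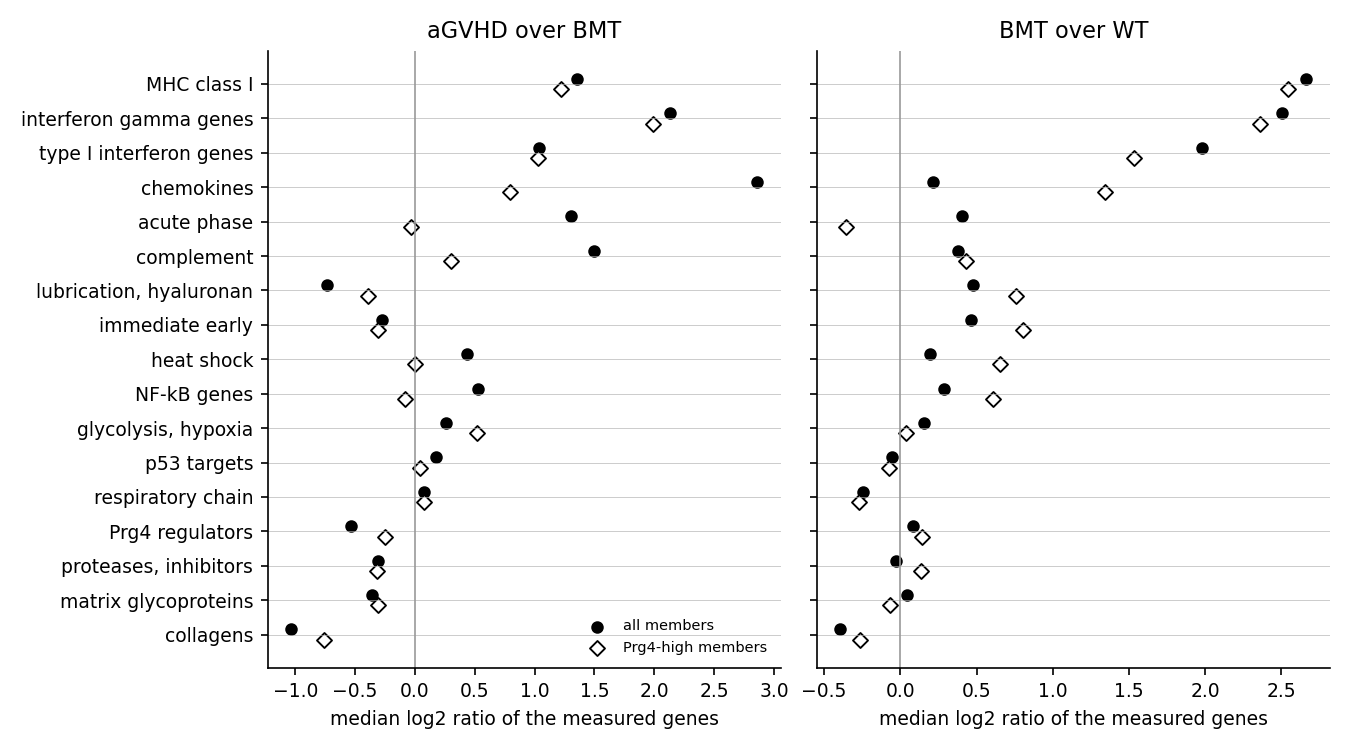
Median log2 ratio of the measured genes of 17 lists in aGVHD over BMT (left) and BMT over WT (right), for all members (filled circles) and Prg4-high members (open diamonds); the vertical line marks no difference, and the median over all genes lay within 0.04 of it. MHC class I and interferon lists lie far right in both panels, collagens lie left, and the chemokine, acute phase and complement lists differ between the 2 sets of cells in aGVHD over BMT.

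In aGVHD over BMT, 231 of 6747 measured genes were higher in all members by the size rule (3.42%) and 180 lower (2.67%). In Prg4-high members 101 of 4827 were higher (2.09%) and 86 lower (1.78%), and 33 of the 231 and 54 of the 180 were called there too. With each gene's highest cell left out, the counts over all members were 142 and 100, and without LepR-rich and cartilage-rich members 154 of 5807 (2.65%) and 113 (1.95%). The 10 leading genes higher in all members were Saa3, Cybb, Ccl8, Spp1, Hp, Il1rn, Ccl11, Cxcl10, Ccl2 and Gbp2, and none of them was called in Prg4-high members. Their folds in Prg4-high members were often still large, at 6.15 for Gbp2 (4.60 to 8.31), 4.48 for Cxcl10 (3.19 to 6.34), 3.15 for Ccl2 (2.37 to 4.21), 2.32 for Spp1 (1.51 to 3.58) and 7.44 for Hp (3.57 to 17.0), although 93.8% of the aGVHD UMIs of Hp there lay in 1 cell, and 95.7% of those of Spp1. Ccl11 had 28 UMIs in aGVHD and 1 in BMT, Ccl8 had 125 UMIs in 1 aGVHD cell, Saa3 had 66 UMIs in 2 aGVHD cells and none in BMT, and Cybb and Il1rn had at most 4 UMIs in either library. Hp, the acute phase protein haptoglobin, stood at 7399 CPM in aGVHD and 362 in BMT members, and 5636 of its 6329 aGVHD UMIs lay in LepR-rich members. Saa3, another acute phase gene, stood at 898 and 1.74 CPM, with 508 of 768 UMIs in LepR-rich members. Cd74, the chain that escorts MHC class II, stood at 544 and 5.21 CPM, with 388 of 465 UMIs there. In Prg4-high members Hp stood at 88.2 CPM in aGVHD and 11.9 in BMT, and Cd74 at 8.27 and 2.37. Most aGVHD UMIs of these 3 genes thus lay in members with marrow stroma genes. Without LepR-rich and cartilage-rich members the fold for aGVHD over BMT was 12.7 for Cxcl10, 13.9 for Ccl2, 10.8 for Gbp2 and 38.8 for Ccl11, close to those in all members of 11.9, 11.3, 11.8 and 31.1. For Hp it was 233, against 20.4 in all members, since 412 of the 417 BMT UMIs also lay in LepR-rich members. It was smaller for Cybb, at 3.92 against 164, for Il1rn, at 5.04 against 24.8, and for Spp1, at 2.72 against 25.6.

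Among genes lower in aGVHD, the 2 sets of cells were closer. Sdc2, a heparan sulfate proteoglycan of the cell surface, stood in Prg4-high members at 433 CPM in aGVHD, 1445 in BMT and 1445 in WT, 3.34-fold lower in aGVHD than in BMT (2.83 to 3.97), and in all members it was 3.84-fold lower (3.38 to 4.38). Fbln7, a cell adhesion protein of the fibulin family, stood in Prg4-high members at 74.4, 265 and 453 CPM, 3.55-fold lower in aGVHD than in BMT (2.38 to 5.51). Hk2, hexokinase, stood at 116, 354 and 116 CPM, 3.05-fold lower (2.20 to 4.32), and was thus high in BMT alone. Chka, choline kinase, stood at 41.4, 215 and 113 CPM, with 37.0% of the BMT UMIs in 1 cell, and Cpq, a secreted peptidase, at 146, 403 and 373. Pi15, Ednrb, Scg3 and Abhd11os were also among the 10 lowest in Prg4-high members, each with UMIs in at most 1 aGVHD cell.

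Genes higher in aGVHD over BMT in Prg4-high members differed in how many cells carried them. Serpina3n, a serine protease inhibitor of the acute phase, stood at 323 CPM in aGVHD, 55.8 in BMT and 80.1 in WT, 5.79-fold for aGVHD over BMT (4.09 to 8.30), in 14 of 24 and 13 of 38 cells. Tbc1d2b, a regulator of membrane traffic, was 7.26-fold higher (3.18 to 18.6), in 13 and 8 cells. Apod, apolipoprotein D, stood at 438, 22.5 and 47.9 CPM, but in 5 aGVHD cells with 51.6% of UMIs in 1 of them. Fbln2, a matrix protein, stood at 414, 98.5 and 39.0 CPM, with 46.0% of the aGVHD UMIs in 1 cell, and Trabd2b had 82.9% in 1. The values of Apod and Trabd2b in aGVHD thus rest on 5 cells each, while Fbln2 lay in 18 of 24 cells with nearly as much in 1 of them as in all others.

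Members were also set against the other stromal cells of the same library, as a description, since the rule separates these cells by some of their genes. Pi16 cells, which resemble the fibroblasts around vessels, numbered 87 in aGVHD, 80 in BMT and 403 in WT, and tendon-like cells 150, 132 and 900. Of 5611 genes measured in every library, 96 were at least 2-fold higher in members than in Pi16 cells in all 3 libraries (1.71%) and 129 lower (2.3%). Against tendon-like cells 100 of 5798 were higher (1.72%) and 100 lower (1.72%). Prg4-high members gave 83 of 4382 higher (1.89%) and 239 lower (5.45%) against Pi16 cells, and 106 of 4454 higher (2.38%) and 198 lower (4.45%) against tendon-like cells. F13a1, the coagulation factor that cross-links fibrin, was 39.1-fold higher than in Pi16 cells in aGVHD, at least 295-fold in BMT and 104-fold in WT, and 10.4-, 7.10- and 12.9-fold higher than in tendon-like cells. Rgcc, a cell cycle regulator, was 36.4-, 40.6- and 34.1-fold higher than in Pi16 cells and 6.70-, 4.57- and 5.82-fold higher than in tendon-like cells. Summed over members, both genes were thus more than 4-fold higher than in Pi16 and tendon-like cells in every library. The F13a1 UMIs lay mostly in Prg4-high members, with 280 of 284 in aGVHD, 1058 of 1085 in BMT and 2375 of 2470 in WT.

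Col22a1 was at least 32.8-fold higher in members than in Pi16 cells in aGVHD, at least 122-fold in BMT and 40.7-fold in WT. Tspan15 was at least 43.8-fold, 258-fold and 27.2-fold higher, with 1 UMI in the BMT Pi16 cells. Cd55 was 9.11-, 4.60- and 4.71-fold higher than in tendon-like cells, and Aldh1a3, which makes retinoic acid, 13-, 4.54- and 9.03-fold. Cd55 was not particular to members, since Pi16 cells carried it about as often. After thinning, 66.7%, 60.5% and 41.7% of Prg4-high members in aGVHD, BMT and WT had a Cd55 UMI. Among thinned Pi16 cells the shares were 58.1%, 59.5% and 49.5%. The other leading genes against both kinds were Rab37 and Cystm1. Genes lower than in tendon-like cells in every library included Fmod, Cilp2, Mfap4 and Chad, which encode matrix proteins of tendon and cartilage. Cytl1 cells numbered 28 in aGVHD, 12 in BMT and 313 in WT, so aGVHD and WT were compared, and 559 of 4582 genes were higher in members (12.2%) and 192 lower (4.19%). For Prg4-high members the counts were 351 of 2588 (13.6%) and 192 (7.42%). Has1 was 161-fold higher in aGVHD and 44.0-fold in WT, while Col10a1, Ucma, Chad and Col9a2, genes of cartilage, were among the lowest.

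**Figure D5:**
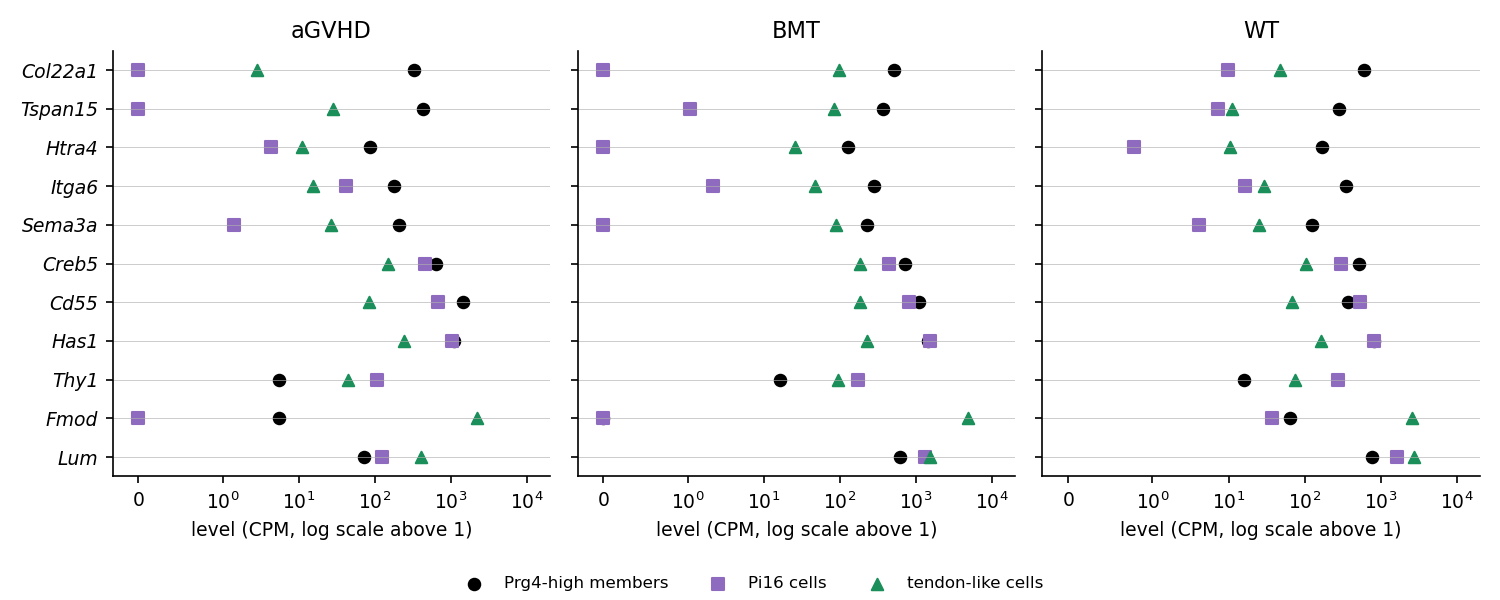
Levels (CPM, log scale above 1, with 0 at the left edge) of 11 genes summed over Prg4-high members (black circles), Pi16 cells (purple squares) and tendon-like cells (green triangles), in the aGVHD, BMT and WT libraries. Col22a1, Tspan15, Htra4 and Sema3a are highest in the Prg4-high members of each library, Has1 is at like levels in Pi16 cells, Thy1 is lowest in Prg4-high members and Fmod is highest in tendon-like cells.

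Thy1, the surface marker of sublining fibroblasts, was rare in Prg4-high members. After each cell was thinned to 2000 UMIs, 0% of 24 Prg4-high members in aGVHD, 7.89% of 38 in BMT and 1.52% of 132 in WT had a Thy1 UMI. Among Pi16 cells the shares were 15.1% in aGVHD, 27.8% in BMT and 33.0% in WT. The interval of the aGVHD value of 0% reached up to 14.2%. Col22a1 was found in 29.2%, 60.5% and 58.3% of the thinned Prg4-high members, and in 0.761% of thinned WT Pi16 cells. Without thinning its shares were 58.3%, 81.6% and 79.1%. H2-K1 was found in 91.7%, 94.7% and 44.7% of the thinned Prg4-high members and Gbp2 in 37.5%, 5.26% and 2.27%. The share with Col22a1 was thus lowest in aGVHD and that with Gbp2 highest there. The shares with H2-K1 in aGVHD and BMT were close, although its level was higher in aGVHD. Among thinned Pi16 cells, H2-K1 was found in 95.3% in aGVHD, 79.7% in BMT and 30.7% in WT. Gbp2 was found in 43.02%, 18.99% and 2.28% of them. Among thinned tendon-like cells the shares were 88.5%, 45.04% and 27.9% for H2-K1, and 34.4%, 4.58% and 1.92% for Gbp2. Both genes were thus rarest in WT in these cells too. Their higher shares in aGVHD and BMT were not particular to Prg4-high members. Thinning left out 2 WT Prg4-high members with fewer UMIs and none in aGVHD or BMT.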

How the data were processed

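The deposited files are raw counts of UMIs for every gene and barcode, which the authors did not normalise. Per the file headers they were written by Cell Ranger 3.1.0, and the submitters' processing notes name mm10 and Seurat. Empty droplets are included, so cells were called here (at least 1000 UMIs, 500 genes and under 10% mitochondrial UMIs), which removed 548 barcodes in aGVHD, 253 in BMT and 544 in WT by the mitochondrial limit alone. Likely doublets were the highest Scrublet scores (scanpy 1.11.5), at 0.8% per 1000 cells, and stayed in the main values. Member UMIs were summed per library and scaled to CPM, with exact conditional intervals for ratios and Clopper-Pearson intervals for shares (scipy 1.17.1). Ratios of shares carry normal intervals on the log scale. A gene at 0 was set to a floor of 3 UMIs. The share of free RNA was estimated from neutrophil granule and haemoglobin genes, against barcodes of at most 100 UMIs. Computations ran in Python 3.11.15 and were checked on simulated counts. List genes needed 30 UMIs over both libraries, and genes of the rule were left out. Named genes are the 10 highest and 10 lowest past the size rule, ranked by the interval bound nearest to 1, without ribosomal, mitochondrial, haemoglobin, immunoglobulin and unnamed genes, plus the list genes with most UMIs. The members and lists were chosen with earlier results of these data known. Gene positions are from GENCODE M21. Alternatives tried were other Prg4 limits, deeper cells, doublet removal, free RNA subtraction, thinning, other scalings and no single highest cell.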

Additional observations from a re-analysis of the deposited data

How the results depend on the processing

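No paired analysis was possible because each group has 1 library. Of 75 values for counts and shares under the alternatives, 59 stayed within 1.5 times or their interval. Among 520 values for named genes 424 did so, 93 moved further and 3 reversed. Thinning left 9 named genes the same, moved 29 and reversed 2. The limit of 0.5% Prg4 left 21 the same, moved 18 and reversed 1. Single gene folds thus depended much on these 2 choices. With free RNA subtracted, 116 genes were lower in BMT over WT, and 70 with its share taken from neutrophil markers alone. With each gene's highest cell left out, 45 genes were higher and 42 lower in BMT over WT, and 142 higher and 100 lower in aGVHD over BMT. With members thinned to 2000 UMIs the 4 counts were 53, 39, 67 and 55, from fewer UMIs. Taken as a share of matrix cells, the ratio of members was 1.09 for BMT over WT, the other side of 1, and 1.55 for aGVHD over BMT. That neutrophil estimate and the next 2 alternatives were chosen after the data were seen. With Prg4 at least 0.5% of UMIs, 101 genes were higher and 86 lower in aGVHD over BMT, the share ratio was 0.411, and 351 genes were higher than in Cytl1 cells. Without LepR-rich and cartilage-rich members 113 genes were lower in aGVHD over BMT. Reversed values were Adgrd1 at 0.761 and Fetub at 1.90 when thinned (BMT over WT), and, with Prg4 at least 0.5% of UMIs, the acute phase median at −0.030, the marrow stroma marker median at −1.81 and Cybb at 0.775, on 1 UMI in aGVHD and none in BMT (aGVHD over BMT); the cause was not tested. List medians reversed in 2 of 944 values. With 1 library per group, no spread between mice could be measured, and aGVHD had only 24 Prg4-high cells.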

Other observations

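Genes that glucocorticoids induce, which were not part of the lists above, differed within Prg4-high members. Of 13 measured genes of the list, 6 were at least 1.5-fold higher in aGVHD than in BMT and 1 was lower (median log2 ratio 0.28), where 14.8% of all measured genes were higher. Fkbp5, a co-chaperone of the glucocorticoid receptor, stood at 71.7 CPM in aGVHD, 10.7 in BMT and 21.1 in WT, 6.71-fold for aGVHD over BMT (3.05 to 16.3), in 12 of 24, 7 of 38 and 31 of 134 cells. Tsc22d3, the leucine zipper protein GILZ, stood at 325, 106 and 195 CPM, 3.08-fold (2.32 to 4.10). Pdk4, which shuts off pyruvate oxidation, stood at 66.2, 19 and 30.6 CPM, and Zbtb16 at 57.9, 28.5 and 23.4. Fkbp5, Tsc22d3 and Pdk4 were thus lowest in BMT, and Zbtb16 was lowest in WT. Cebpb, another gene of the list, was lower in aGVHD, at 364, 661 and 541 CPM.

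Glycolysis genes gave a second such group. In Prg4-high members 7 of 17 measured genes of the glycolysis and hypoxia list were at least 1.5-fold higher in aGVHD than in BMT and 2 were lower (median 0.52), where 14.8% of all genes were higher. In all members 2 of 18 were higher and 2 lower, where 14.6% of all genes were higher. Pkm, pyruvate kinase, stood at 419, 238 and 252 CPM in aGVHD, BMT and WT, and Aldoa, aldolase, at 529, 311 and 361. Hk2, described above, went the other way. Of 20 measured respiratory chain genes none differed by 1.5-fold in all members in either comparison, and in Prg4-high members 2 were lower in BMT over WT and none differed in aGVHD over BMT.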
